A study of Mus musculus with 8 samples.

Results

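The replication-dependent histone genes were the protein-coding mouse genes whose GENCODE symbol begins with Hist1h, Hist2h, Hist3h or Hist4h, and 67 of 21938 protein-coding genes on the assembled chromosomes met this rule. They encode the linker histone H1 (6 genes) and the core histones H2A (18), H2B (18), H3 (12) and H4 (13). The Hist1 cluster on chromosome 13 held 54 of them, the Hist2 cluster on chromosome 3 held 10, the Hist3 cluster on chromosome 11 held 2 and Hist4h4 stood alone on chromosome 6. The question asked of them was where ASH2L was bound along these clusters and at which of the genes.

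Replication-dependent histone genes supply the bulk of the histones that package newly made DNA, and their transcription and mRNA stability rise when cells enter S phase. They mostly lack introns, lie in clusters in which neighbours are often divergently transcribed, and give mRNAs that end in a conserved stem-loop instead of a poly(A) tail. ASH2L is a core subunit of the KMT2 complexes, which methylate lysine 4 of histone H3 at active promoters.

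ChIP-seq of ASH2L had been carried out in iMEF cells, immortalised mouse embryo fibroblasts in which exon 4 of the floxed Ash2l alleles can be deleted by an inducible Cre-ER recombinase. All groups carried a lentiviral FKBP12F36V and HA fusion of human ASH2L that replaced the endogenous protein, and the study worked mostly with cells of 1 clone. The 8 libraries formed 4 groups of 2, which were ASH2L ChIP without dTAG, ASH2L ChIP after dTAG for 1 h, and the input of each, dTAG being a degrader of FKBP-tagged proteins. The labels name Ash2l as the antibody target, while the study's methods describe HA-selective antibodies. The values analysed were 1 list of 6444 ASH2L sites over all samples, each with a chromosome, a start and an end (mm10) and no count or score. Therefore the read depth behind a site was unknown, no value had a replicate error, and ASH2L signal with and without dTAG was not analysed here. Nor does the list say in which libraries a site was called, so some sites may come only from those after dTAG. Of 13 fibroblast marker genes 6 had a site within 1 kb of a transcription start site (TSS), against 14.0% of all protein-coding genes. These were Col1a1, Col1a2, Vim, Prrx1, Twist1 and Twist2, while Col3a1, Col6a1, Pdgfra, Pdgfrb, Thy1, Fn1 and S100a4 had none. None of 21 markers of epithelial, blood, endothelial, pluripotent and neuronal cells had one, on few genes.

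Sites over the start of histone coding regions are shown first, because they are the most frequent position found. Each sequence was read from GRCm38.p6 on the strand of the gene and begins at most 30 bases before the start codon, which is in capitals.
Hist1h3e, chr13:23562171-23562382, minus strand: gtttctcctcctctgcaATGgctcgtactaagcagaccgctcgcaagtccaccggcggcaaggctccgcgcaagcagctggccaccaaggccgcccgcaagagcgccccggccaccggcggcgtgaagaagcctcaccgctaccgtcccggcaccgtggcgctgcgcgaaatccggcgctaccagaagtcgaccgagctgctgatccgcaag
Hist1h3c, chr13:23745283-23745527, minus strand: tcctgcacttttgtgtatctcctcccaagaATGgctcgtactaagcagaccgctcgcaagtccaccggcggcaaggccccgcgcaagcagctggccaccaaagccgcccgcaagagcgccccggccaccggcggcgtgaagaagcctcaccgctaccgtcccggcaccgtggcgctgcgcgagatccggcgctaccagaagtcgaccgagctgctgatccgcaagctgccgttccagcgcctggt
Hist1h4c, chr13:23698219-23698479, minus strand: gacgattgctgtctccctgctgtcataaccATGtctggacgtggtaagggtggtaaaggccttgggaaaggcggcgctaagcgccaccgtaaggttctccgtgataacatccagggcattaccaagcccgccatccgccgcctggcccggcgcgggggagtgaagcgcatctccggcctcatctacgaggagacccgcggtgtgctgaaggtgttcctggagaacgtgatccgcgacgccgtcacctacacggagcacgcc
Hist1h4b, chr13:23756991-23757140, plus strand: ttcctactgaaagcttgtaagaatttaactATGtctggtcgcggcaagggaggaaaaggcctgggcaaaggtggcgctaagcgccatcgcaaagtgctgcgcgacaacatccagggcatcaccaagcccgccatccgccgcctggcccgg
Hist1h1d, chr13:23555060-23555233, plus strand: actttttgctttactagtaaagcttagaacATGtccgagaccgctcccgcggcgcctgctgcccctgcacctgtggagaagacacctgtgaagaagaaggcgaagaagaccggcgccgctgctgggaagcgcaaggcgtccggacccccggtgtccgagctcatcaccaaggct
Hist2h2bb, chr3:96269722-96269920, plus strand: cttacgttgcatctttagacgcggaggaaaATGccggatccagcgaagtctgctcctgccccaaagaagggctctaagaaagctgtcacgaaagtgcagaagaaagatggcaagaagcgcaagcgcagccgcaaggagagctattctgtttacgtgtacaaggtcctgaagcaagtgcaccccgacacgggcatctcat

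Further sites lay away from the coding region. The site upstream of Hist1h4h covered a whole tRNA gene, n-TMcat9, which is in capitals, and the sites past the Hist1h4k coding region and upstream of Hist2h2aa1 are shown for contrast, with no capitals.
Site upstream of Hist1h4h, chr13:23530304-23530512, minus strand: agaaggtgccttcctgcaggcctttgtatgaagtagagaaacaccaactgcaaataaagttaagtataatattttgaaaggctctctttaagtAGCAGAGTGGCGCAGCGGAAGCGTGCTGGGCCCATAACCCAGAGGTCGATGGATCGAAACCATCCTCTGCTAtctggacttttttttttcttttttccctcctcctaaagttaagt
Site past Hist1h4k, chr13:21749872-21750071, minus strand: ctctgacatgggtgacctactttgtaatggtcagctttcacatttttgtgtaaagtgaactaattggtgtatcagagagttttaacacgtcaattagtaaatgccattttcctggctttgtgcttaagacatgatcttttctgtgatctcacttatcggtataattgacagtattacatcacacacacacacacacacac
Site upstream of Hist2h2aa1, chr3:96245080-96245279, plus strand: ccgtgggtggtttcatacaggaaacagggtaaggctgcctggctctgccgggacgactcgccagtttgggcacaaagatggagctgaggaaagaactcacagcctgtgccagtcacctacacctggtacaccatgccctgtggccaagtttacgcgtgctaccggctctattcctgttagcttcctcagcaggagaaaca

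A promoter with a site and one without are shown from RefSeq (GRCm38.p6), each running from 250 bases before to 50 bases after the gene start. The Hist1h4k promoter lay entirely inside an ASH2L site, 300 of 300 bases, and its TATAAA is in capitals. The Hist1h2ae promoter is shared head to head with Hist1h2bg and had no site, and its capitals mark TATAAA on the opposite strand, the octamer ATTTGCAT on the opposite strand and a CCAAT on each strand.
Hist1h4k promoter, chr13:21750504-21750803, minus strand: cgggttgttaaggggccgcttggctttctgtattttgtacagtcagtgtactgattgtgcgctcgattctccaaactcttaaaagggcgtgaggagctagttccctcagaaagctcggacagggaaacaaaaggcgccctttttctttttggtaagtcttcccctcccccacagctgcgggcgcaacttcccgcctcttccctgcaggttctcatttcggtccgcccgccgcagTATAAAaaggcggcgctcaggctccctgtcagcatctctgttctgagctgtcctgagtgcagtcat
Hist1h2ae promoter, chr13:23571171-23571470, minus strand: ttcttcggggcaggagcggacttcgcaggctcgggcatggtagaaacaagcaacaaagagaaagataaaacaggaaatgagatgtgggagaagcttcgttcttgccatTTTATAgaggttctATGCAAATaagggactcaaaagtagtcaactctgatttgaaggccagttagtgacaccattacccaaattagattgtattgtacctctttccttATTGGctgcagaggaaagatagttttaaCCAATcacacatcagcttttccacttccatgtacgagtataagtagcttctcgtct

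The label of the gene set was checked against the stem-loop. A 16-base stem-loop was found within 300 bases past the stop codon of 65 of 67 histone genes, against 81 of all 21938 protein-coding genes (0.369%). Hist2h2be and Hist1h2an were the exceptions. It began 22 to 59 bases after the stop codon, with a median of 31. There were 8 spellings, of which the most frequent 3 are given with the loop in capitals.
Spelling of 41 genes: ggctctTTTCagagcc
Spelling of 9 genes: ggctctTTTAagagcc
Spelling of 8 genes, all H4: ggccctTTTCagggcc
All 11 histone genes with a site within 1 kb of the TSS had a stem-loop, and no site covered one.

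A site was centred within 1 kb of a TSS of 11 of 67 histone genes (16.4%, Wilson 95% confidence interval 9.42 to 27.1%, counting error only). The share over all protein-coding genes was 14.0% and lay inside this interval. It was 19.2% over the 15953 genes with a CpG-rich window near the TSS, which 66 of 67 histone genes had, and 10.3% over the 575 single-exon genes with such a window that encode no member. Hence, taken as one set, the histone genes had a site at their TSS about as often as other genes. Within 3 kb, 19 of 67 genes had a site (28.4%, 19.0 to 40.1%) against 15.4% of all genes. However, neighbouring histone genes shared sites, since 14 sites accounted for the 19 genes. When each site within 3 kb was given to its nearest gene alone, 12 histone genes had a site (17.9%) against 13.3% of all genes.

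The counts were then read by encoded histone. H4 genes had a site within 1 kb in 5 of 13 cases (38.5%, 17.7 to 64.5%) and H3 genes in 4 of 12 (33.3%, 13.8 to 60.9%). H2A genes had one in 1 of 18 cases (5.56%, 0.988 to 25.8%), and so did H2B genes. None of the 6 H1 genes had one, which allows a share of up to 50.0%. Together, genes of H3 or H4, the histones that form the central tetramer of the nucleosome, had a site in 9 of 25 cases (36.0%, 20.2 to 55.5%). Genes of H2A or H2B, which form the flanking dimers, had a site in 2 of 36 (5.56%, 1.54 to 18.1%). The first interval lies above the 14.0% of all genes and the 2 intervals do not overlap. Measured from start codons, the counts were 8 of 25 (32%, 17.2 to 51.6%) and 3 of 36 (8.33%, 2.87 to 21.8%), and these intervals overlap. No test was made of this difference, since genes of 1 cluster and overlapping windows are not independent.

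**Figure D1:**
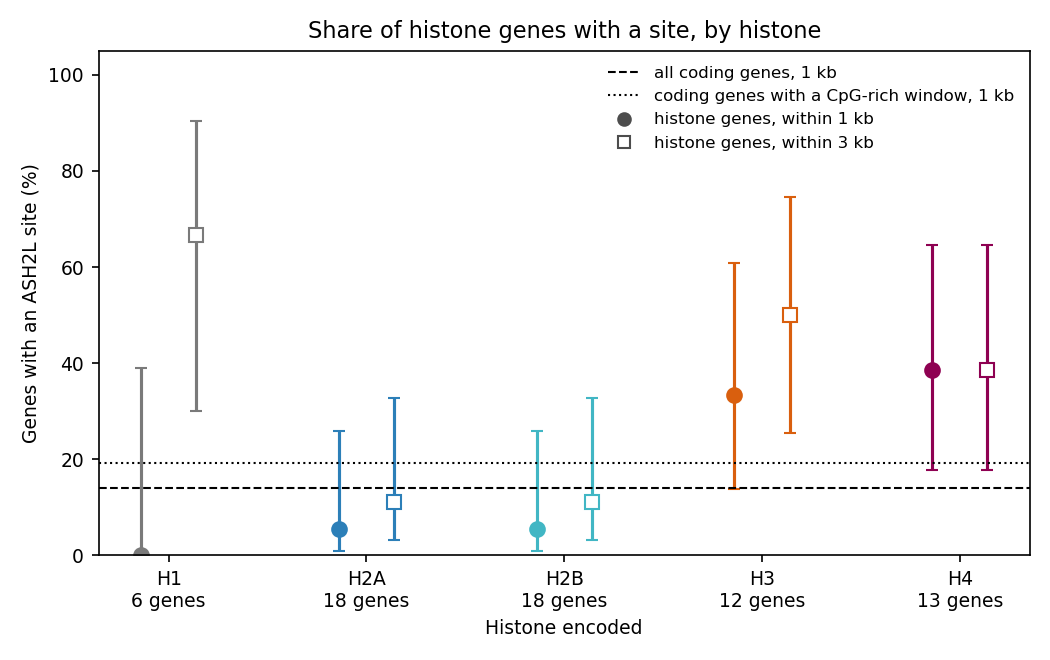
Share of histone genes (percent, y axis) with an ASH2L site centred within 1 kb (filled) or 3 kb (open) of a TSS, by encoded histone, with Wilson 95% intervals as bars and the 1 kb share of all protein-coding genes (14.0%) and of those with a CpG-rich window (19.2%) as lines. H3 (33.3%) and H4 (38.5%) lie above both lines at 1 kb and H2A and H2B (5.56% each) below, while H1 goes from 0 of 6 at 1 kb to 4 of 6 at 3 kb.

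In the Hist1 cluster all 8 genes with a site within 1 kb of a TSS encode H3 or H4 (8 of 20, 40.0%). Among them, Hist1h4h and Hist1h4a were counted through sites outside their own gene. None of the 28 H2A or H2B genes of this cluster had a site within 1 kb, which allows a share of up to 10.7%. Most of these 28 genes form divergent pairs with overlapping windows, so this limit counts windows more than once and is too low. Measured from start codons, 7 of 20 and 1 of 28, the H2B gene Hist1h2be, had a site. The small Hist2 cluster differed in its counts, with 1 of 4 H3 or H4 genes and 2 of 6 H2A or H2B genes. The median distance from a TSS to the nearest site was 2.85 kb for H3, 3.65 kb for H4 and 2.21 kb for H1 genes, and it was 12.6 kb for H2A and 13 kb for H2B genes. The median over all 67 genes was 8.05 kb against 93.8 kb over all protein-coding genes. Neighbouring histone genes shared sites, and the share of genes with a site within 1 kb was 16.4% against 14.0%.

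**Figure D2:**
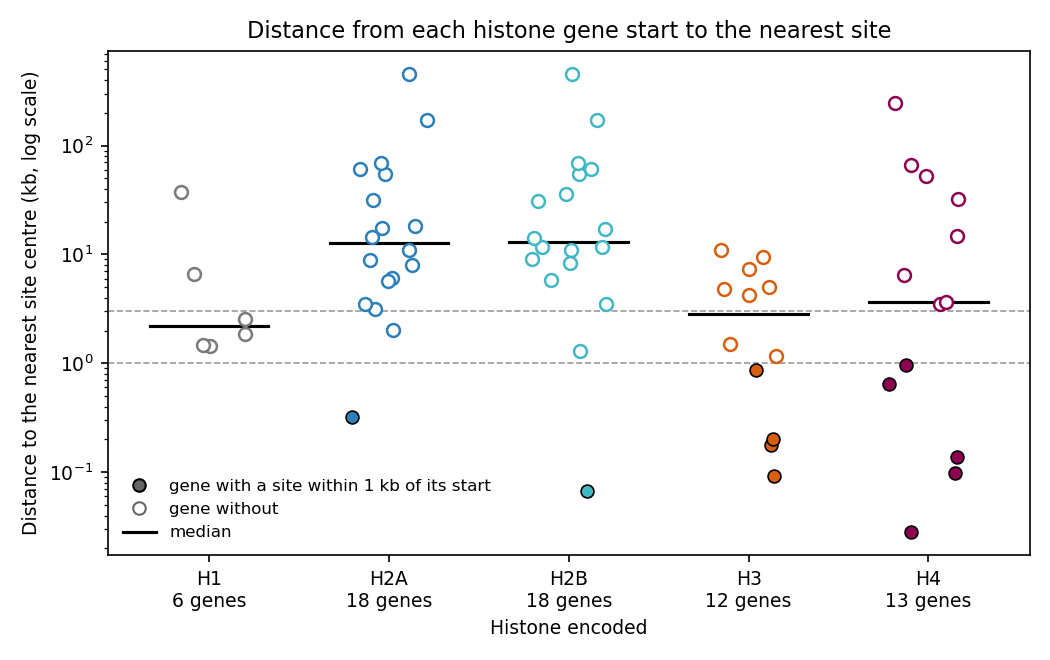
Distance from each histone gene TSS to the centre of the nearest ASH2L site (kb, log axis), by encoded histone, with 1 point a gene, the median as a bar and dashed lines at 1 and 3 kb. Filled points (site within 1 kb) are 9 H3 or H4 genes, 1 H2A and 1 H2B gene.

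The arrangement of the genes moved with this division. There were 13 pairs of histone genes transcribed away from each other from starts 176 to 660 bp apart (median 268 bp). In 12 of them H2A was paired with H2B, and the other was Hist1h2bh with Hist1h3f. None of the 26 paired genes had a site within 1 kb or 3 kb, which allows a share of up to 11.5%, and the closest of them lay 3.18 kb from a site. The 2 genes of a pair share most of their window. The limit therefore counts windows more than once, and over the 13 pairs it would be higher. Of the 41 unpaired genes 11 had a site within 1 kb (26.8%, 15.7 to 41.9%) and 19 within 3 kb (46.3%, 32.1 to 61.3%), beside 14.0% and 15.4% of all protein-coding genes. The share of 75-base windows that occur once in the genome moved with pairing, with a median of 73.5% in paired genes, 4 of which reached 90%, and of 90.8% in unpaired genes, 21 of which did, and its part in the counts was not tested. Of these pairs' genes 25 encode H2A or H2B, with no site, which allows up to 12% for them alone, a limit that is too low for the same reason. Among unpaired genes, those of H2A or H2B had a site within 1 kb in 2 of 11 cases (18.2%, 5.14 to 47.7%) and within 3 kb in 4. Unpaired genes of H3 or H4 had one within 1 kb in 9 of 24 cases (37.5%, 21.2 to 57.3%) and within 3 kb in 11. The intervals of the unpaired genes overlap, and the difference between the 2 histone types among them was not tested.

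Histone coding sequences are near-copies of each other, which bears on where short reads can be placed. Of the 75-base windows within 1 kb of a histone TSS, a median of 83.4% occurred once in the genome (range 0.0 to 100.0%), against a median of 99.9% over 1097 protein-coding genes taken at regular steps along the annotation. The medians were 100.0% for H1, 73.7% for H2A, 74.9% for H2B, 82.0% for H3 and 91.9% for H4. Hist1h2bq, Hist1h2ao, Hist1h2ap and Hist1h2br had no unique window at all. The low values of H2A and H2B moved with their low share of sites. Among genes with at least 90% unique windows, a site within 1 kb was present at 5 of 11 H3 or H4 genes (45.5%, 21.3 to 72.0%) and at none of 8 H2A or H2B genes, which allows up to 37.5%. This filter was applied to the windows around the TSS and not to the site itself. Of the 5 genes, Hist1h3a and Hist1h4c had sites with 21.1 and 66.7% unique windows, and Hist1h4h was counted through a tRNA site. Measured from start codons, the counts in the genes with at least 90% unique windows were 5 of 11 and 1 of 8, Hist1h2be. For Hist1h2be, uniqueness was measured around its GENCODE TSSs, the nearest of which lay 35.8 kb from that site, and not around its start codon. Over all histone genes, the median share of unique windows was 85.4% in genes with a site within 1 kb and 83.4% in those without. The study's methods describe a filter of unusable reads after the ENCODE recommendations and modified nf-core code, without naming reads with several equal matches, and the part of such reads in the counts was not tested further.

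**Figure D3:**
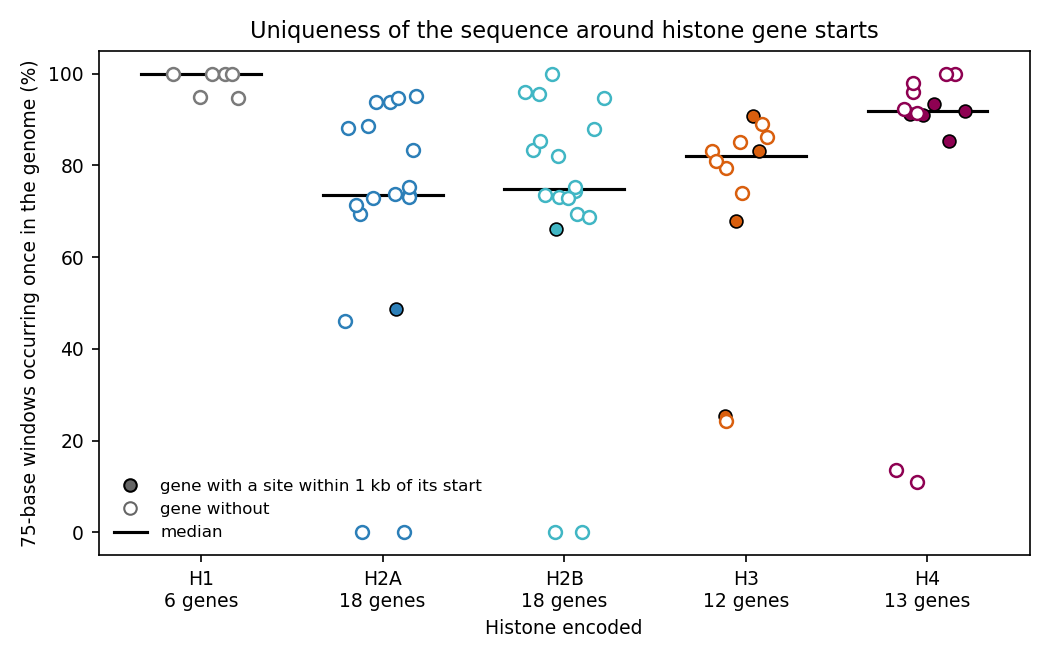
Share of 75-base windows within 1 kb of each histone gene TSS that occur once in the genome (percent, y axis), by encoded histone, with 1 point a gene and the median as a bar. Genes with a site (filled) range from 25.3 to 93.5%, and 4 H2A or H2B genes lie at 0.0%.

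Position relative to the coding region was read next. Of the 14 sites within 3 kb of a histone TSS, 7 covered a start codon, 1 lay wholly inside a coding region, 4 lay past the stop codon of the nearest histone gene and 2 lay upstream. The sites over start codons reached from the 5′ side into the coding region, with 24.7 to 92.0% of their length in coding sequence. Those at H3 and H4 genes and at Hist2h2bb are described first, followed by the sites away from the start.

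Among H4 genes, Hist1h4b had the closest site, 200 bp wide (chr13:23756941-23757140), centred 27.5 bp downstream of its TSS and covering the first 120 coding bases. The Hist1h4c site was 275 bp wide (chr13:23698219-23698493) and centred 98.0 bp downstream. Hist1h4k had 2 sites. The first, of 542 bp (chr13:21750372-21750913), was the widest at any histone gene and extended over the promoter shown above. The other, of 200 bp, followed 533.5 bp after the start codon. Hist1h4h was counted through the tRNA site 0.642 kb upstream of its TSS, and Hist1h4a through the site in the neighbouring Hist1h3a, 0.956 kb upstream. Hence 3 of the 5 H4 genes had a site over their own start codon.

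All 3 H3 genes of Hist1 with a site had it over their own coding region. The Hist1h3e site was 212 bp wide (chr13:23562171-23562382) and centred 92.5 bp downstream of the TSS. The Hist1h3c site was 285 bp wide (chr13:23745283-23745567) and centred 177 bp downstream. At Hist1h3a the site of 283 bp (chr13:23762045-23762327) lay wholly in coding sequence, centred 200.0 bp downstream. These sites were rich in C and G, with a GC content of 67.9, 61.4 and 68.9%. Their own sequence was in part repeated elsewhere in the genome, as 78.3, 63.0 and 21.1% of their 75-base windows were unique, in the same order. The Hist1h4c site had 66.7% unique windows, whereas the other sites within 3 kb had 97.9 to 100.0%.

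In the Hist2 cluster the single H2B gene with a site, Hist2h2bb, had one of 204 bp over its start codon (chr3:96269717-96269920), centred 66.5 bp downstream of the TSS and unique throughout. The H2A gene Hist2h2aa1 had a site of 200 bp centred 0.318 kb upstream of its TSS, shown above. The H3 gene Hist2h3c2 had a site of 330 bp (chr3:96238085-96238414) centred 877.5 bp downstream, past its stop codon. Hist2h2aa2, Hist2h3c1 and Hist2h3b lay within 3 kb of these same sites, at 2.026, 1.506 and 1.165 kb, so each of the 3 sites lay within 3 kb of 2 genes.

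Counted from GENCODE TSSs, the linker histone genes came in only at the larger distance, 4 of 6 (66.7%, 30.0 to 90.3%) against 15.4% of all genes. With RefSeq starts or start codons, 1 of 6 had a site within 1 kb. Hist1h1d had 2 sites at either end of its coding region. One of 200 bp (chr13:23555034-23555233) covered the start codon, and one of 208 bp (chr13:23555930-23556137) was centred 246.5 bp past the stem-loop. The GENCODE TSS of this gene lies 1828 bp before its start codon, so the first site counts only within 3 kb, while the RefSeq start at position 23555032 lies beside it. Hist1h1b had a site of 376 bp past its coding region, centred 1453.5 bp downstream of the TSS. Hist1h1t, the testis H1, and Hist1h1a lay 2.542 and 1.480 kb from the sites of Hist1h4c and Hist1h3a. The H2B gene Hist1h2bb lay 1.309 kb from the site of Hist1h3c. Thus of the 5 Hist1 genes added by the wider window, Hist1h1d and Hist1h1b alone had a site nearer to their own coding region than to another.

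**Figure D4:**
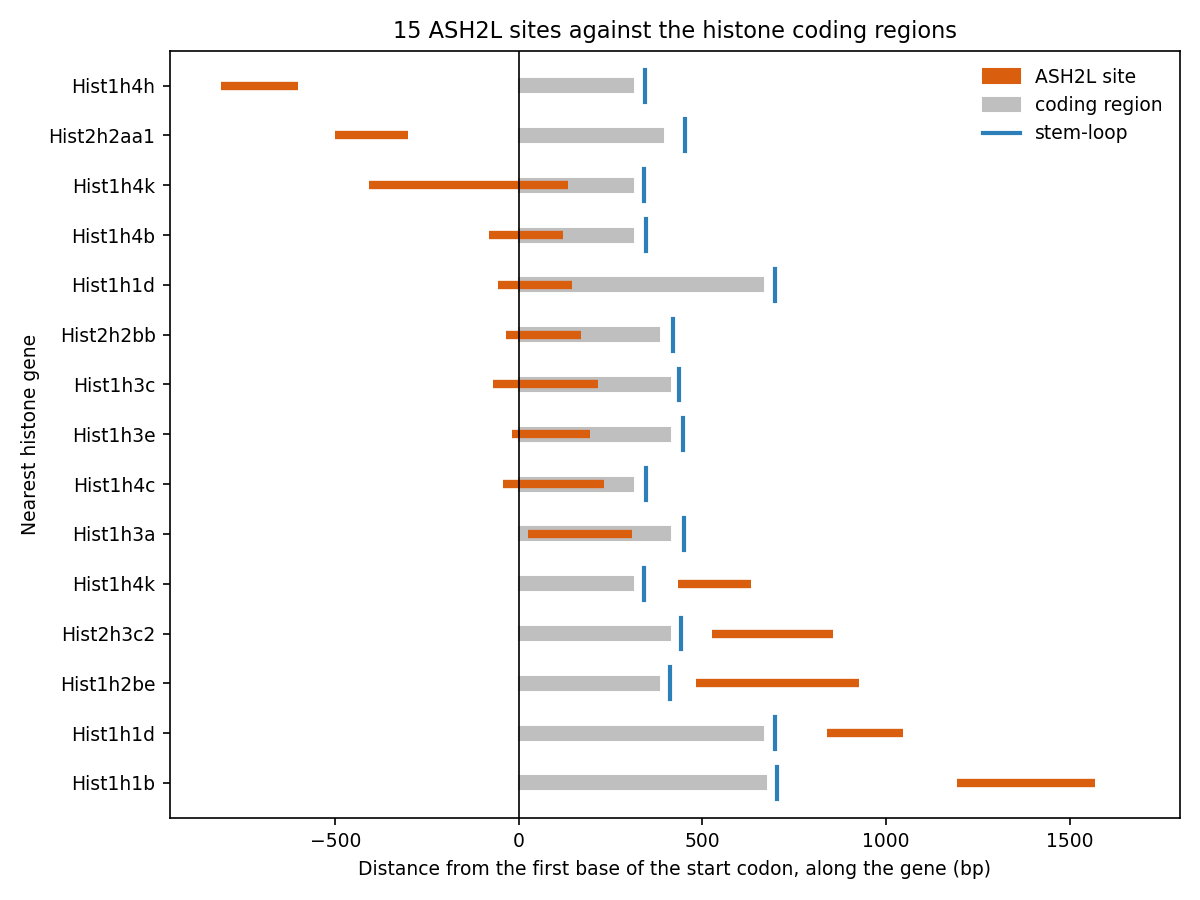
The 14 sites within 3 kb of a histone TSS and the site past Hist1h2be (orange), drawn to scale against the coding region (grey) and stem-loop (blue) of the nearest histone gene, by distance from the start codon along the gene (bp). Sites over the start codon stop short of the stem-loop, and 5 sites lie past it.

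Sites past the coding region formed a small group of their own. The site centres lay 193.5 bp past the start of the stem-loop at Hist1h4k, 246.5 bp at Hist1h1d, 250.5 bp at Hist2h3c2 and 680.5 bp at Hist1h1b. A further site of 446 bp (chr13:23585029-23585474) lay 294.5 bp past the stem-loop of the H2B gene Hist1h2be. It was not counted at the TSS, because the nearest GENCODE TSS of this gene lay 35.8 kb away, although the site was centred 704.5 bp from the start codon. The RefSeq promoter table lists a second promoter of this gene beside the start codon (chr13:23585921-23586220). All 5 sites had 100.0% unique windows and a GC content of 37.5 to 50.5%. When distance was measured from start codons, an alternative chosen after the data were seen, 12 of 67 histone genes had a site within 1 kb (17.9%) against 9.65% of all protein-coding genes. From TSSs these shares were 16.4% and 14.0%. How far start codons lie from TSSs in other genes was not measured, and no share from start codons was counted for single-exon genes. Hist1h1d and Hist1h2be were added and Hist1h4a dropped out.

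The 14 sites within 3 kb had a median width of 210 bp (range 200 to 542 bp), with a 95% interval of 200 to 330 bp from the order of the widths, and 4 had the minimum of 200 bp (28.6%). The 11 sites within 1 kb had a median of 212 bp. The 3168 sites within 1 kb of any protein-coding TSS had a median of 305 bp, which lies inside that interval, with 9.25% at the minimum. The median of the histone sites was 279 bp without minimum-width sites or with close sites merged. No histone site was wider than 1 kb. Of the 11 sites within 1 kb of a histone TSS, 8 were centred downstream, and the downstream share of all protein-coding promoter sites was 67.2%.

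Along chromosome 13 the Hist1 genes formed 2 stretches separated by 1487 kb of other genes, among them 36 vomeronasal receptor genes. The first stretch, from Hist1h2bl to Hist1h2bj (chr13:21715763-22043676, 328 kb), held 23 genes and 4 sites. The second, from Hist1h4h to Hist1h2aa (chr13:23531050-23934851, 404 kb), held 31 genes and 8 sites. In the first stretch 1 gene had a site within 1 kb (4.35%, 0.772 to 21%) and in the second 7 had one (22.6%, 11.4 to 39.8%), so the intervals overlap. The Hist2 cluster (chr3:96219865-96270132) was compact, with 10 genes and 3 sites in 50.3 kb. Site density was 12.2, 19.8 and 59.7 sites per Mb in these 3 stretches and 2.36 per Mb over the genome. The stretches were drawn around closely packed histone genes, so these densities do not compare sites per gene. By gene, the share with a site within 1 kb was 16.4% over all histone genes and 14.0% over all protein-coding genes. At the far end of the second stretch, the testis pair Hist1h2aa and Hist1h2ba lay 172 kb from any site. Hist3h2a and Hist3h2ba on chromosome 11 were 451 and 457 kb from their nearest site, and Hist4h4 was 245 kb from its own.

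**Figure D5:**
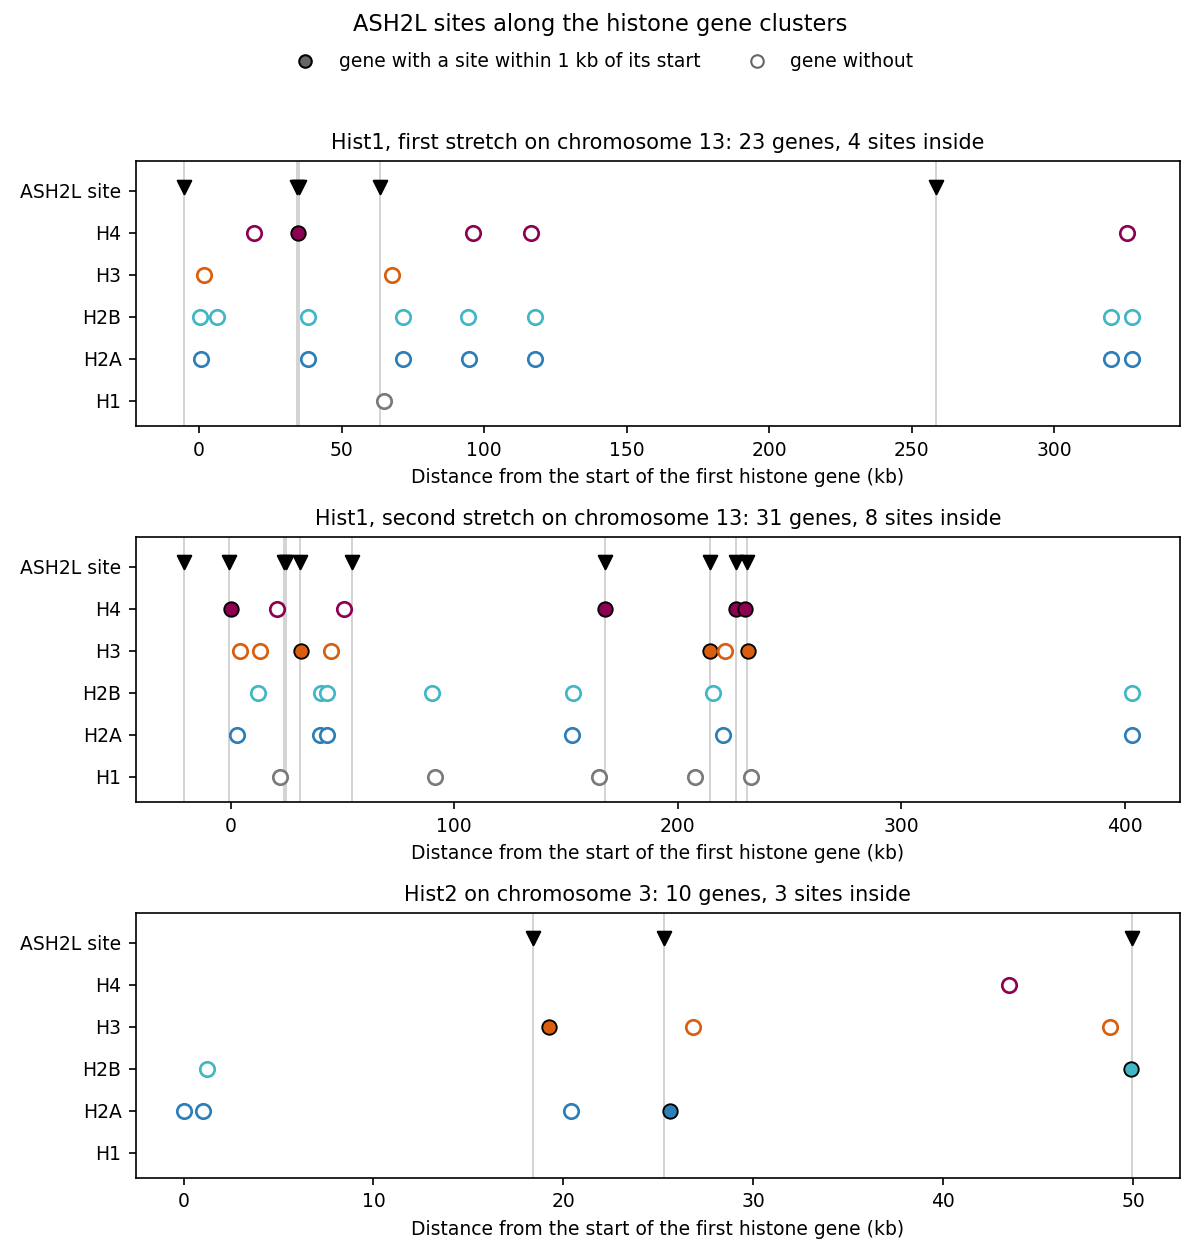
Histone genes (circles, by encoded histone) and ASH2L sites (triangles and grey lines) along the 3 stretches that hold 64 of the 67 genes, by distance in kb from the start of the first gene. Filled circles are genes with a site within 1 kb, 1 in the first stretch, 7 in the second and 3 in Hist2.

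The neighbours of the histone genes shared the stretches with them. The other protein-coding genes inside were Zfp184, Pom121l2 and Prss16 in the first stretch and Hfe, Trim38, Slc17a1, Slc17a2, Slc17a3 and Slc17a4 in the second, and none of these 9 had a site within 1 kb. tRNA genes are a second large family of this region. Over the whole Hist1 span with 25 kb on either side, 4 of 79 tRNA genes had a site within 1 kb, while the share of all 408 tRNA genes was 9.80%. Besides n-TMcat9 they were n-TGgcc7 and n-TMcat7 at a site of 496 bp 34 bp from the former, and n-TMcat8 at a site of 322 bp 371 bp away. These last 2 sites lay over 5 kb from any histone TSS.

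The nearest genes without a site showed how the distances ran on past the window. Hist1h2ak and Hist1h2bn, a divergent pair beside Hist1h4k, lay 3.184 and 3.481 kb from its site. Hist1h4f was 3.486 kb from the Hist1h1d site, Hist1h2af was 3.498 kb from the tRNA site, and Hist1h4d was 3.654 kb from the site past Hist1h2be. At the 1 kb border, Hist1h4a was just inside at 0.956 kb and Hist2h3b just outside at 1.165 kb.

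Base composition did not set the genes with a site apart by much. The median GC content within 1 kb of the TSS was 47.3% in histone genes with a site within 1 kb and 49.6% in those without. The median ratio of observed to expected CpG was 0.848 and 0.739, with ranges of 0.553 to 0.927 and 0.138 to 0.942 that overlap. Over all protein-coding genes with a site, the medians were 53.9% and 0.713.

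Promoter motifs were searched as exact letters on both strands in the 63 promoters of 300 bases that the RefSeq table holds for 62 histone genes, beside all 32851 promoters there. TATAAA was present in 55.6% of histone promoters against 13.6% of all, and CCAAT in 85.7% against 37.4%. The octamer ATTTGCAT, the recognition sequence of POU2F1, was in 22.2% against 1.74%, and an E2F-type match (TTTCCCGC, TTTCGCGC, TTTGCCGC or TTTGGCGC) in 15.9% against 2.26%. No spelling contains another motif. The octamer occurred at 7 H2A and 7 H2B genes and at none of H1, H3 or H4. Head-to-head promoters share bases, so these 14 promoters hold 11 distinct octamers. CCAAT was at all 18 H2A genes but at 3 of 12 H4 genes. Of the 10 genes with a site within 1 kb and a promoter in the table, 3 had TATAAA, 7 CCAAT, 1 the octamer and 1 an E2F-type match. Of the 52 without, the numbers were 32, 46, 13 and 9.

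Genes that act on histone genes, their mRNAs or their proteins were read from 4 lists. Beside their counts stand the shares of 14.0% over all protein-coding genes and 19.2% over those with a CpG-rich window. Of 10 genes for histone gene transcription 2 had a site within 1 kb, a share near both. They were E2f4, a repressive E2F factor, with a site of 219 bp, and Yy1, a zinc finger factor, with one of 329 bp. Npat, the coactivator of histone genes, had its nearest site 103668 bp downstream of its TSS and is named because its role is central, after its value was seen.

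Of 19 genes for histone mRNA 3′ end processing and decay 9 had a site (47.4%), against 14.0% of all genes. Slbp, whose product binds the stem-loop, had a site of 200 bp centred 188.5 bp downstream of its TSS. Subunits of the cleavage machinery were Cpsf1 (409 bp wide), Cpsf2 (629 bp) and Wdr33 (200 bp). Factors of the mRNA cap were Ncbp1 (336 bp), Ncbp2 (286 bp) and Srrt (406 bp). The decay factors Upf1, an RNA helicase, and Lsm1 had sites of 361 and 200 bp.

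Of 23 histone chaperone genes 8 had a site (34.8%), against 14.0% of all genes. Asf1a, which hands over H3 and H4, had the nearest of 2 sites 973 bp wide. The chaperones of the replacement histone H3.3, Hira and Ubn1, had sites of 433 and 279 bp. Rbbp4 had one of 262 bp, and Ssrp1, a subunit of FACT, one of 422 bp. Nap1l1, Set and Npm1 had sites of 474, 218 and 1023 bp.

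Of 11 replication-independent histone genes, most of which are expressed outside S phase and give polyadenylated mRNAs, 3 had a site within 1 kb (27.3%), against 14.0% of all genes and on few genes. They were H2afy and H2afy2, which encode macroH2A, with sites of 726 and 263 bp, and H3f3b, which encodes H3.3, with one of 282 bp. H2afx, also on this list, had a stem-loop past its stop codon like the replication-dependent genes.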

How the data were processed

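ChIP-seq was performed on 8 iMEF libraries, with 2 replicates in each of 4 groups. Reads were trimmed with Trim Galore and aligned to mm10 (GRCm38.p6) with BWA, filtered with SAMtools and merged over replicates with Picard, and narrow peaks were called with MACS2. Versions are not given in the sources used here. The deposited list used here gives the positions of 6444 sites over all samples, without signal per sample. Therefore a planned test of ASH2L signal after dTAG was not run, and the reads behind each site are unknown. The study's own table of sites changed by dTAG was not used here.

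Starts were read as counted from 0, since the smallest width is then exactly 200 bp, and are printed counted from 1. The 16 sites outside the assembled chromosomes were left out. TSSs and coding regions came from GENCODE mouse release 21, while the study cites a later one. In release 21 the starts of Hist1h1d and Hist1h2be lie far from their coding regions. In addition, RefSeq gave gene starts, tRNA genes and promoters. All 67 histone genes were matched to RefSeq, and 62 had a promoter there. A gene had a site where a site centre lay within 1 or 3 kb of any of its annotated TSSs. A CpG-rich window spans at least 200 bp with over 50% GC and a CpG ratio over 0.6. Uniqueness was counted over 75-base windows, the length of the sequencing cartridge, on both strands, after a test on simulated data. Head-to-head pairs had divergent starts within 1 kb of each other.

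Shares carry Wilson 95% intervals, and a count of 0 allows 3 counts of the total, both taking genes as independent. Calculations were made in Python 3.11.15 (SciPy 1.17.1 for intervals, matplotlib 3.10.9 for plots, pandas 2.3.3 and NumPy 2.4.6). Histone genes with a site within 3 kb, the 5 next nearest, and listed genes with a site within 1 kb were named. The members and lists were chosen with earlier results of these data known. Alternatives changed the window, the TSSs, the overlap rule, the widths included, merging, assignment, annotation and members.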

Additional observations from a re-analysis of the deposited data

How the results depend on the processing

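Of 77 alternative values computed, 65 stayed within the tolerance set and 12 moved. Genes and sites were scored separately under the same setting, so these values are not independent. For the histone types only the H3 or H4 genes were scored, 9 from TSSs and 8 from start codons. The H2A or H2B genes, which went from 2 to 3, were not scored. The tolerance was 1.5 times for counts, and the 95% interval of the median for medians. With only sites of at least the median width of the list, the genes with a site within 1 kb fell to 6 and their sites to 5, and within 3 kb the numbers were 11 genes and 6 sites. With histone genes under 90% unique left out, 25 genes remained, of which 5 had a site within 1 kb at 6 sites and 9 had one within 3 kb at 9 sites, and the H3 or H4 genes with a site numbered 5 of 11. Both settings leave fewer genes or sites to count. Giving each site to its nearest gene alone left 12 genes within 3 kb. With 500 bases on each side the median GC content and CpG ratio of the histone genes were 53.7% and 0.879 instead of 49.4% and 0.757. Other windows gave 8 genes at 500 bp, 17 at 2 kb and 26 at 5 kb. Start codons instead of TSSs, RefSeq starts for the histone types, the exclusion of less unique genes for the histone types and uniqueness over assembled chromosomes alone were chosen after the data were seen.

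The list holds no score, so width stood in for a more stringent peak call. The alternatives planned for the test of ASH2L signal after dTAG were not run, as the list holds no value per sample. No paired analysis was possible because the sites carry no value per replicate. As the reads behind each site are unknown, a gene without bound ASH2L and one under the detection limit cannot be told apart.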
